A study of Mus musculus with 24 samples.

Results

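The elastic fibre genes described here are the 10 genes Eln, Fbn1, Fbln1, Fbln2, Fbln5, Efemp2, Mfap2, Mfap4, Mfap5 and Emilin1, found by their symbols among the 41128 genes of a count table from mouse aorta. Total RNA, freed of ribosomal RNA, had been sequenced from 24 aortas, 1 library per mouse, in 8 groups of 3 mice. The mice were wildtype (WT) or Ppp3cb knockout (KO, stock B6,129S6-Ppp3cbtm1Jmk/J), female or male, and 5 months old. Ppp3cb encodes the beta form of the catalytic part of calcineurin, a calcium-activated phosphatase. Treated mice of each genotype and sex received angiotensin II (AngII), a hormone that constricts vessels and raises blood pressure. It came from implanted osmotic minipumps over 4 weeks, at a rate of 500 ng/kg/min. The others are labelled control. Whether a pump was also implanted in the controls, and whether WT and KO mice were littermates, is not in the labels. The design implies the comparison of AngII with control mice in each genotype, of the genotypes at each treatment, and of the AngII response between genotypes and sexes.

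Elastic fibres give the wall of large arteries its recoil. Smooth muscle cells of the wall lay them down mostly before and shortly after birth, and the fibres turn over very slowly in the adult. Elastin, the rubber-like core, is deposited on a scaffold of fibrillin microfibrils, carried there by fibulins, and fixed by lysyl oxidases. Calcineurin dephosphorylates the NFAT transcription factors, which bind DNA at the core motif GGAAA.

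All 10 genes are protein-coding, and their coordinates are from GENCODE M21 on GRCm38 (mm10), the build the submitters name. Core and scaffold are Eln (ENSMUSG00000029675; chr5:134702593-134747323, minus strand), which encodes elastin, and Fbn1 (ENSMUSG00000027204; chr2:125300594-125507993, minus strand), which encodes fibrillin-1, the main microfibril protein of the adult. Bridging proteins are the fibulins. Fbln5 (ENSMUSG00000021186; chr12:101746565-101819055, minus strand) and Efemp2 (ENSMUSG00000024909; chr19:5473954-5482517, plus strand), also called fibulin-4, are needed for fibre assembly. Fbln1 (ENSMUSG00000006369; chr15:85205949-85286535, plus strand) and Fbln2 (ENSMUSG00000064080; chr6:91212455-91272540, plus strand) encode fibulins that bind elastin and other matrix proteins. Microfibril-associated proteins are encoded by Mfap2 (ENSMUSG00000060572; chr4:141010418-141015984, plus strand), Mfap5 (ENSMUSG00000030116; chr6:122505845-122529290, plus strand) and Mfap4 (ENSMUSG00000042436; chr11:61485431-61488900, plus strand). The first and second of these are the small glycoproteins MAGP-1 and MAGP-2, and MFAP4 binds tropoelastin and fibrillin. Emilin1 (ENSMUSG00000029163; chr5:30913402-30921277, plus strand) encodes a glycoprotein found where elastin meets the microfibrils.

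Promoter windows of 250 bases before the start of transcription were searched for the NFAT core GGAAA, which reads TTTCC on the opposite strand. RefSeq tables on GRCm38.p6 held windows for 7 of the 10 genes, 12 windows in all, and 10 of the 12 held the motif, as did 55.6% of all 32851 mouse windows of this length. Eln, Mfap4 and Mfap5 were not among the 7. The 3 windows that overlap no annotated exon, 1 each of 3 fibulin genes, are printed to show how the matches vary, with matches in capitals. The printed windows hold 0 matches (Fbln5), 1 (Fbln1) and 4 (Efemp2). Other starts of the same genes give windows with 2 matches for Fbln5, 0 for Fbln1, and 1 in each of 2 for Efemp2, so a count belongs to a window and not to the gene. A match is a run of letters and not a known binding site, and its absence from a window says nothing about the factor.
Fbln5 promoter window, chr12:101819120-101819369, minus strand: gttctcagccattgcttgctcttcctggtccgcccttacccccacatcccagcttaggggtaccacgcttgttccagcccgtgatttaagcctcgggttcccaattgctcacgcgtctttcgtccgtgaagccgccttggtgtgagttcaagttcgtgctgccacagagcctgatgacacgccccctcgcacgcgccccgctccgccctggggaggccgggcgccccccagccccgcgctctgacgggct
Fbln1 promoter window, chr15:85205699-85205948, plus strand: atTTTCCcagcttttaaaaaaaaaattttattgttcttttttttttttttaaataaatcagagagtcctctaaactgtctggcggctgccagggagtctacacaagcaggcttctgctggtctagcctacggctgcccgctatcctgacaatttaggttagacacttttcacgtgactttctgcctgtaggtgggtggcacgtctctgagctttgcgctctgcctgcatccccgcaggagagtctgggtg
Efemp2 promoter window, chr19:5473696-5473945, plus strand: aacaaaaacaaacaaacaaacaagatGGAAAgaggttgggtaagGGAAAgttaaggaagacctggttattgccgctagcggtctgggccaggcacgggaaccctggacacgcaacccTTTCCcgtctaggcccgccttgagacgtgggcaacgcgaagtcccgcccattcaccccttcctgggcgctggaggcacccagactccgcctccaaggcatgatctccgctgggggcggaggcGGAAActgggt

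The libraries held 1523328 to 6352365 counts (median 3835993), of which 1109737 to 3188442, or 36.3% to 74.6%, fell on protein-coding genes. Ppp3cb itself, the targeted gene, was at 28.1 to 69.4 CPM in the 12 WT libraries (median 39.5) and 11.2 to 30.3 in the 12 KO libraries (median 20.2), so the ranges overlapped. CPM are counts scaled to a common library size, after TMM factors. Olfactory and vomeronasal receptor genes, which are silent in most tissues outside the nose, took 1002 to 1992 CPM of protein-coding counts in the KO control females and at most 1073 in the other groups (median 346). KO control females 1 and 3 lay above every library of the other groups. Some changes of the members over both sexes are therefore also given without these 2 libraries. Marker, pathway and single-sex values that use them are not given in that way. Values without them have KO control female 2 as the 1 mouse of its group. Smooth muscle markers (6 of 8 with counts, among them Myh11 and Acta2) summed to 6301 to 19621 CPM over the 24 libraries. Tagln and Cnn1, which mark the same cells, had 0 counts in every library. In such bulk samples, fewer cells of a type and less RNA per cell cannot be told apart.

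All 10 genes passed the filter on low counts. Levels per kilobase use the merged exons of all annotated transcripts of a gene, 8098 bases for Eln and 1922 for Mfap4. This length can exceed that of the transcripts present, and the order of the genes depends on it. On this measure, Mfap4 had the highest mean level over the 24 libraries at 109 ± 61.1 CPM per kb (SD). Eln followed at 81.2 ± 50.9 CPM per kb and Fbn1 at 42.3 ± 15.2. Mfap4 was first in 18 libraries and Eln in the other 6, so the order of these neighbours was not fixed. Next came Fbln5 at 26.3 ± 10.5 and Fbln1 at 21.7 ± 7.61 CPM per kb. Fbln2 (14.7 ± 4.52), Emilin1 (14.2 ± 5.71) and Mfap5 (13.7 ± 6.99) had levels per kb within each other's SD. Efemp2 was at 10.3 ± 3.78 CPM per kb, and Mfap2 was lowest at 6.36 ± 2.75, in last place in 18 libraries. Of the neighbours in this order, Fbn1 stood above Fbln5 in 24 of 24 libraries, and Mfap5 above Efemp2 in only 14. By CPM, which favours long transcripts, Eln and Fbn1 took the most counts.

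**Figure D1:**
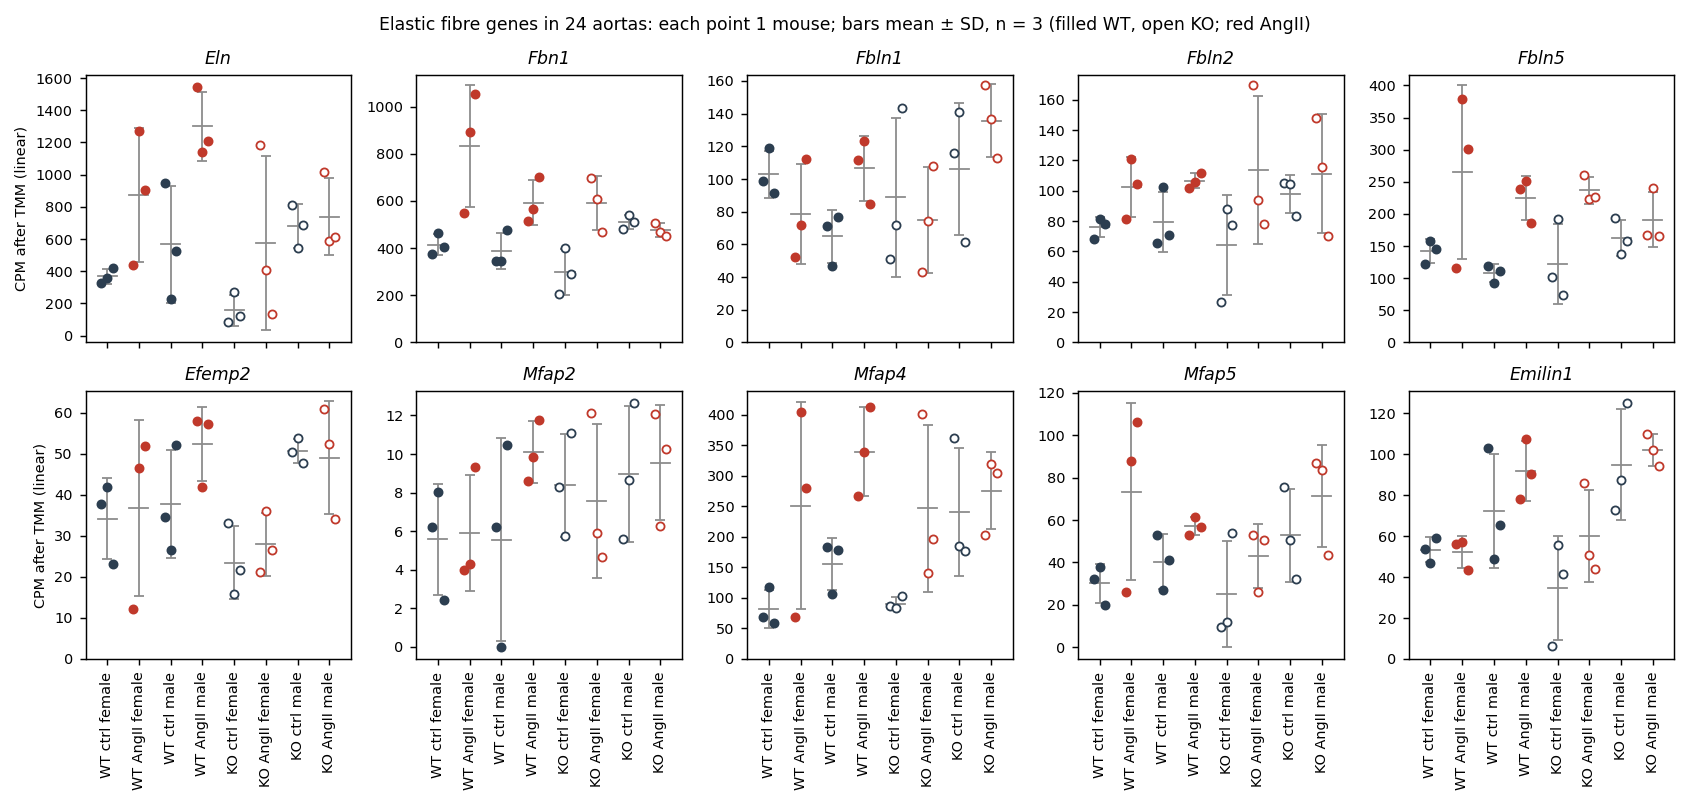
CPM of each elastic fibre gene (linear axes, 1 panel per gene) in the 8 groups; points are mice, bars the mean and SD of 3 mice, filled points WT, open points KO, and red points AngII. In WT males the 3 AngII points of Eln, Fbn1, Fbln5 and Mfap4 sit above all 3 control points, and in KO males they do not.

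AngII in WT mice. Every one of the 10 genes had a higher fitted level in AngII than in control WT mice, with a median change of 0.64 on the log2 scale, where 48.8% of all 16316 genes tested had a change above 0. Mfap4 rose, and the other 9 did not pass the adjusted test in edgeR. The 1 of 10 called at an adjusted p under 0.05 stood against 0.208% of all genes tested (0.184% called higher). At an unadjusted p under 0.05 there were 5 of 10, Mfap4, Eln, Fbln5, Mfap5 and Fbn1, against 6.71% of all genes. DESeq2 called Mfap4, Fbn1 and Fbln5 (0.49% of all genes). The limma-voom fit, here and below with a quality weight for each library, called these and also Eln and Mfap5 (2.02% of all genes). Changes, here and below, are log2 AngII minus control over both sexes with their SE, and adjusted p-values are from edgeR's quasi-likelihood test.

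Mfap4 was at 69.2, 117 and 59.6 CPM in the 3 WT control females and 68.8, 404 and 279 in the 3 WT AngII females. In WT males it was at 183, 107 and 179 CPM in controls and 267, 339 and 413 after AngII. The male groups did not overlap, while WT AngII female 1 lay among the control females. Its change was 1.37 ± 0.30, a 2.58-fold rise (adjusted p = 0.0394). The call was lost in 8 of the 24 fits that left out 1 library: WT control female 1 or 3, WT AngII female 2 or 3, WT control male 2 or 3, and WT AngII male 2 or 3. It was lost too in 6 of 12 other settings, with changes of 1.09 to 1.58 over the left-out libraries.

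Eln was at 327, 359.9 and 418 CPM in WT control females and 439.5, 1269.8 and 905 in WT AngII females. In WT males it was at 948, 229 and 524 CPM in controls and 1546, 1143 and 1209 after AngII. Within each sex every AngII mouse lay above every control mouse, but WT control male 1 was higher than 2 of the AngII females. The change of Eln was 1.22 ± 0.36, with an adjusted p of 0.257 in edgeR, and so it was not called.

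Fbn1 was at 377, 462 and 403 CPM in WT control females and 549, 894 and 1055 in WT AngII females. WT control males had 343, 344 and 478 CPM and WT AngII males 514, 566 and 699.5. It was the single member whose 6 AngII values lay above all 6 control values, a pattern shown by 0.386% of all genes tested. Its change of 0.81 ± 0.19 had an adjusted p of 0.0645 in edgeR.

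Fbln5, of the bridging fibulins, was at 123, 159 and 146 CPM in WT control females and 116, 379 and 301 in WT AngII females. In WT males the values were 119.8, 92.6 and 112 CPM in controls and 238, 251 and 186 after AngII. The males were apart, and WT AngII female 1 was again below the control females. Fbln5 changed by 0.98 ± 0.23 in the fit, with an adjusted p of 0.0646 in edgeR. The other fibulins had smaller values: Fbln2 0.42 ± 0.23, Efemp2 0.29 ± 0.27 and Fbln1 0.16 ± 0.25.

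Of the microfibril-associated genes, Mfap5 was at 32.2, 38.0 and 20.1 CPM in WT control females and 26.3, 87.6 and 106 in WT AngII females. In males it was at 52.9, 27.1 and 41.2 CPM in controls and 53.1, 61.4 and 56.6 after AngII. WT AngII males 1 to 3 all lay above the control males, the first of them by a narrow margin. The fitted change of Mfap5 was 0.89 ± 0.33 (edgeR adjusted p = 0.505). Mfap2, the least abundant member with 0 to 52 counts a library, gave 0.46 ± 0.53. In WT control male 2 it had 0 counts, which allows up to 0.707 CPM at that depth, for counting error only. Emilin1, at the elastin and microfibril interface, gave 0.16 ± 0.27, with 46.9 to 103 CPM in WT controls and 43.3 to 107 after AngII.

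By sex, the AngII values lay wholly above the controls for 3 members in WT females (Eln, Fbn1 and Fbln2), against 5.81% of all genes, and for 6 in WT males (Eln, Fbn1, Fbln1, Fbln5, Mfap4 and Mfap5), against 8.1%. WT AngII female 1 lay within or below the range of the control females for 7 members, all but Eln, Fbn1 and Fbln2. Without it, 3 members were called, where 0.473% of all genes were: Mfap4, Fbln5 and Fbn1, at 1.58 ± 0.25, 1.15 ± 0.20 and 0.92 ± 0.19. Macrophage markers were higher in the WT fit for 7 of 7 tested (median 0.68), with a summed level of 76.2 to 123 CPM in controls and 120.4 to 215 after AngII. Fibroblast markers were higher for 6 of 7 (median 0.36; 559 to 877 against 754 to 1166 CPM), smooth muscle markers for 4 of 6 (median 0.16) and endothelial markers for 0 of 7 (median -0.71; 396 to 1945 against 313 to 1042 CPM). Neural and Schwann cell markers were higher for 0 of 6 (median -1.70; 14.3 to 127 against 5.59 to 46.0 CPM) and cardiac muscle markers for 4 of 4 (median 1.10; 131 to 236 against 148 to 259.7 CPM). Adipocyte markers were higher for 1 of 8 (median -0.14) and skeletal muscle markers for 2 of 4 (median -0.36). Besides Tagln and Cnn1, the markers Clec3b (fibroblast), Cdh5 (endothelium) and Acta1 (skeletal muscle) had 0 counts in every library. No marker of the 8 lists was called, and their part in the change of the elastic fibre genes was not tested.

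AngII in KO mice. Here 9 of the 10 genes had a fitted change above 0 (median 0.47), against 51.4% of all genes tested. No gene of the 16316 passed the adjusted test in this comparison, so 0 of 10 members were called against a background of 0.0%, and DESeq2 and limma-voom called 0 members as well. At an unadjusted p under 0.05 there were 5 members, Eln, Mfap4, Fbln5, Fbln2 and Fbn1, against 7.71% of all genes.

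Eln was at 87.2, 269 and 119 CPM in KO control females and 1183, 409 and 136 in KO AngII females. KO control males had 810.3, 543 and 689.9 CPM and KO AngII males 1015, 586 and 614. KO AngII female 3 lay within the control range, and the male groups overlapped. Its change was 0.99 ± 0.36 (adjusted p = 0.477, edgeR), and 0.45 ± 0.31 without KO AngII female 1. Mfap4 was at 86.6, 83.1 and 103 CPM in KO control females and 402, 141 and 197 after AngII. Its values in KO males were 361, 185 and 177 CPM in controls and 204, 319 and 304 after AngII. The females were apart and the males mixed, and the fit gave 0.82 ± 0.30. Without KO AngII female 1, 9 of 10 members still had a change above 0 (median 0.34), the highest was 0.56 ± 0.24 (Fbln5), and Fbln5 alone had an unadjusted p under 0.05. Mfap4 was then at 0.56 ± 0.29 and Fbln2 at 0.31 ± 0.23. Without KO control female 1, Fbln2 was at 0.32.

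The protein-coding share of counts differed between libraries, in some groups in step with Eln. In KO AngII females 1 to 3 it was 39.9%, 61.4% and 73.0%, the highest Eln level going with the lowest share. It was 74.6%, 62.6% and 65.3% in KO control females and 36.3%, 64.4% and 65.2% in WT control males, again lowest where Eln was highest. WT control females (55.6% to 59.1%) and WT AngII females (51.9% to 63.4%) overlapped in share, and among the latter the lowest share went with the lowest Eln level. WT AngII males had shares of 44.5% to 50.1%. In KO males the shares were 44.6% to 53.2% in controls and 44.4% to 51.3% after AngII. Fitted on protein-coding genes alone, Eln changed by 1.20 ± 0.35 in WT and 0.99 ± 0.35 in KO mice. The part of what sets this share in the Eln values was not tested.

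Fbn1 was at 204, 401 and 292 CPM in KO control females and 696, 609.5 and 469 in KO AngII females. In KO males it was at 480.1, 541 and 509.9 CPM in controls and 508, 468 and 450.0 after AngII. Female AngII values were all higher than their controls, and male values were not. The change over both sexes was 0.44 ± 0.19. Fbln5 was at 101, 192 and 73.7 CPM in KO control females and 261, 223 and 226 after AngII, against 194, 138 and 157 and 168, 241 and 165 in males. It too was apart in females alone, with a change of 0.59 ± 0.23 over both sexes.

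The other members had these changes in KO mice: Mfap5 0.62 ± 0.34, Fbln2 0.50 ± 0.23, Emilin1 0.44 ± 0.27, Efemp2 0.11 ± 0.27, Fbln1 0.06 ± 0.25 and Mfap2 -0.02 ± 0.53. The AngII values lay wholly above the controls for 3 members in KO females (Fbn1, Fbln5 and Mfap4), against 6.85% of all genes, and for 0 in KO males, against 3.74%. Over both sexes 0 members had this pattern in KO mice, against 0.116%. Leaving out KO control females 1 and 3 left KO control female 2 alone in its group. The median change in KO mice was then 0.28 in place of 0.47. Eln was at 0.61 ± 0.40, Fbln5 at 0.28 ± 0.24, Fbn1 at 0.24 ± 0.21, Mfap4 at 0.89 ± 0.36 and Mfap5, the highest, at 1.16 ± 0.36. Mfap5 was at 11.9 CPM in KO control female 2, and at 9.55 and 53.8 in KO control females 1 and 3. Neural and Schwann cell markers were higher with AngII in KO mice for 0 of 6 (median -2.65; 14.03 to 245 CPM in controls against 8.74 to 19.6), and 5 of them had an unadjusted p under 0.05. Endothelial markers were higher for 0 of 7 (median -0.42; 571 to 1279 against 451 to 870.0 CPM) and macrophage markers for 2 of 7 (median -0.18; 86.8 to 484 against 95.6 to 277). Adipocyte markers were higher for 7 of 8 (median 0.36; 320.3 to 817 against 459 to 833 CPM), smooth muscle markers for 5 of 6 (median 0.19) and fibroblast markers for 5 of 7 (median 0.09). Cardiac and skeletal muscle markers were higher for 2 of 4 and 3 of 4. No marker was called, and their part in the members' values was not tested.

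**Figure D2:**
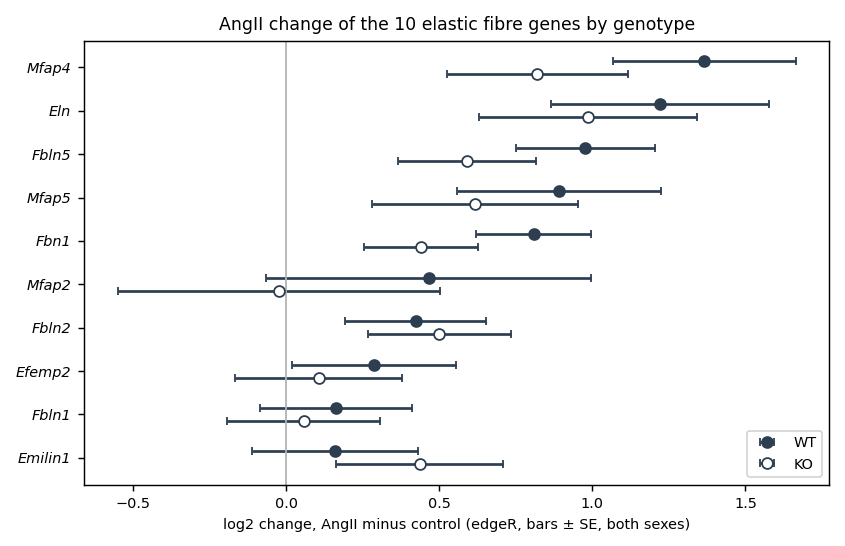
Fitted log2 change, AngII minus control over both sexes, of the 10 genes (rows) in WT (filled) and KO mice (open); bars are the SE of the edgeR fit. Mfap4 has the highest value in WT, 1.37, and Eln in KO, 0.99 (0.45 without KO AngII female 1). Without KO control females 1 and 3, which leaves 1 mouse in that group, Eln in KO is at 0.61. The SE bars of the genotypes overlap for all 10 genes.

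AngII response of KO against WT mice. The difference itself, the KO response minus the WT response, was below 0 for 8 of 10 members (median -0.25), where 52.7% of all genes had one above 0, and 0 of 10 were called, against a background of 0.0%. None had an unadjusted p under 0.05, against 4.03% of all genes, and DESeq2 and limma-voom called 0 members. The differences were -0.55 ± 0.41 for Mfap4, -0.49 ± 0.75 for Mfap2, -0.39 ± 0.32 for Fbln5, -0.37 ± 0.26 for Fbn1, -0.27 ± 0.47 for Mfap5 and -0.23 ± 0.50 for Eln. Efemp2 gave -0.18 ± 0.38, Fbln1 -0.11 ± 0.35, Fbln2 0.08 ± 0.33 and Emilin1 0.28 ± 0.38. Without KO AngII female 1, Eln differed by -0.77 ± 0.43 and Mfap4 by -0.81 ± 0.40, the latter with an unadjusted p under 0.05 and neither called. Macrophage markers had a difference above 0 for 0 of 7 (median -0.86), neural and Schwann cell markers for 0 of 6 (median -0.74), fibroblast markers for 2 of 7 (median -0.45) and cardiac muscle markers for 1 of 4 (median -1.56). It was above 0 for 7 of 7 endothelial (median 0.29), 7 of 8 adipocyte (median 0.58), 5 of 6 smooth muscle (median 0.16) and 4 of 4 skeletal muscle markers (median 0.57), none was called, and their part was not tested. A rise past the test in WT and none in KO is therefore not shown to be a difference between genotypes.

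The sexes contributed unlike values to this comparison. In females, Eln changed with AngII by 1.24 ± 0.50 in WT and 1.86 ± 0.52 in KO mice. In males the same changes were 1.20 ± 0.50 and 0.12 ± 0.50. Mfap4 gave 1.61 ± 0.42 and 1.44 ± 0.43 in WT and KO females, and 1.12 ± 0.42 and 0.20 ± 0.41 in males. Fbn1 gave 1.01 ± 0.27 and 0.98 ± 0.27 in females, and 0.61 ± 0.26 and -0.10 ± 0.26 in males. Among males 10 of 10 members had a KO minus WT difference below 0 (median -0.62), and among females 4 of 10 (median 0.10). No member was called within a sex, and the difference between the sexes in this respect was not tested. No share of all genes is given within a sex, so these counts have no background to be read against. The female values use the KO control females 1 and 3, which stand apart. Without those libraries, over both sexes, the KO minus WT difference was -0.69 ± 0.31 for Fbln5 and -0.56 ± 0.27 for Fbn1. These 2 values rest on 1 remaining KO control female.

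Sex and the AngII response in WT mice. The male minus female difference in response had 5 members above and 5 below 0 (median 0.08; 46.7% of all genes above), with 0 called by edgeR, DESeq2 and limma-voom, against a background of 0.0%. Fbln1 alone had an unadjusted p under 0.05, where 3.16% of all genes did. Its values were 98.5, 119 and 91.5 CPM in WT control females and 52.3, 71.6 and 112 in AngII females, 71.3, 46.7 and 77.1 in control males and 112, 123 and 84.5 in AngII males. Fbln1 was thus mostly lower after AngII in females and higher in males, a difference of 1.10 ± 0.50. The other members gave 0.78 ± 1.06 (Mfap2), 0.38 ± 0.54 (Emilin1), 0.36 ± 0.54 (Efemp2), 0.16 ± 0.45 (Fbln5), -0.00 ± 0.46 (Fbln2), -0.04 ± 0.70 (Eln), -0.40 ± 0.37 (Fbn1), -0.49 ± 0.59 (Mfap4) and -0.78 ± 0.66 (Mfap5). Smooth muscle markers were above 0 for 6 of 6 in this comparison (median 0.24), adipocyte markers for 8 of 8 (median 0.56), endothelial markers for 0 of 7 (median -0.85) and neural and Schwann cell markers for 1 of 6 (median -2.76). Fibroblast (4 of 7), macrophage (5 of 7), cardiac muscle (1 of 4) and skeletal muscle markers (2 of 4) were mixed, none was called, and their part was not tested.

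KO against WT in control mice. This comparison and the next use the same libraries as the AngII comparisons above. Without AngII, 6 members were higher and 4 lower in KO than in WT mice (median 0.04; 49.5% of all genes higher), none was called (background 0.221%) and none had an unadjusted p under 0.05 (background 9.73%). DESeq2 and limma-voom called 0 members too. Eln was lowest, at -0.47 ± 0.35 KO minus WT, and Mfap2 highest, at 0.63 ± 0.53. Between them were Mfap4 0.38 ± 0.30, Fbln1 0.25 ± 0.25, Fbln5 0.19 ± 0.23, Mfap5 0.05 ± 0.34, Fbln2 0.03 ± 0.23, Fbn1 -0.04 ± 0.19, Efemp2 -0.07 ± 0.27 and Emilin1 -0.10 ± 0.27. Over both sexes, no member had KO values wholly above (background 0.227%) or below (0.11%) the WT values.

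The 3 KO control females lay below the 3 WT control females for Eln, a pattern shown by 11.1% of all genes, and the female difference was -1.21 ± 0.51. In control males, where the Eln ranges overlapped, it was 0.26 ± 0.50. KO control females 1 to 3 had the shallowest libraries, with 1523328, 2401264 and 1699541 counts against a median of 3835993 over all libraries. Eln had 137 to 747 counts in them. The part of this depth in the Eln values was not tested. Fbn1 and Fbln5 were wholly higher in KO than in WT control males, against 6.09% of all genes, with differences of 0.39 ± 0.26 and 0.59 ± 0.32. The summed level of smooth muscle markers was 6301 to 19068 CPM in KO controls and 12159 to 19052 in WT controls, with 0 of 6 markers higher (median -0.24). Macrophage markers were higher in KO controls for 7 of 7 (median 1.10; 86.8 to 484 against 76.2 to 123 CPM) and neural and Schwann cell markers for 6 of 6 (median 0.77; 14.03 to 245 against 14.3 to 127 CPM). Adipocyte markers were higher for 1 of 8 (median -0.62), fibroblast markers for 4 of 7, endothelial markers for 3 of 7, and cardiac and skeletal muscle markers for 3 of 4 each. None was called, and their part in these values was not tested. Without KO control females 1 and 3, which leaves 1 KO control female, Eln differed by -0.14 ± 0.39 and the median member by 0.16.

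KO against WT in AngII mice. With AngII, 4 members were higher and 6 lower in KO than in WT mice (median -0.18; 50.9% of all genes higher), and 0 of 10 were called, against 0.355% of all genes. DESeq2 called 0 members, and limma-voom called Eln and Fbn1 (1.23% of all genes). The 1 member with an unadjusted p under 0.05 was Fbn1, where 7.75% of all genes had one. Eln differed by -0.71 ± 0.35 (edgeR adjusted p = 0.656), with 136 to 1183 (median 600.2) CPM over 6 KO mice and 439.5 to 1546 (median 1176) over 6 WT mice. Without KO AngII female 1, the highest of the KO mice, Eln differed by -1.25 ± 0.32 (edgeR adjusted p = 0.126), and 1 member was higher and 9 lower. Fbn1 differed by -0.41 ± 0.19 (edgeR adjusted p = 0.593), with 450.0 to 696 (median 488) and 514 to 1055 (median 633) CPM. In AngII males both genes had KO values wholly below the WT values, as had 6.47% of all genes, and in AngII females no member had (background 4.82%). Over both sexes 0 members lay wholly above (background 0.539%) or below (0.276%) the WT values. Cardiac muscle markers were higher in KO for 0 of 4 (median -0.67), fibroblast markers for 1 of 7 (median -0.10; 537 to 958 against 754 to 1166 CPM), neural and Schwann cell markers for 1 of 6 (median -0.31) and smooth muscle markers for 2 of 6 (median -0.14; 9759.9 to 19621 against 11378 to 19376 CPM). Endothelial markers were higher for 6 of 7 (median 0.17), skeletal muscle markers for 4 of 4 (median 1.12), adipocyte markers for 3 of 8 and macrophage markers for 3 of 7. None was called, and their part was not tested.

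The other members differed by 0.18 ± 0.27 (Emilin1), 0.14 ± 0.25 (Fbln1), 0.14 ± 0.52 (Mfap2), 0.11 ± 0.23 (Fbln2), -0.16 ± 0.29 (Mfap4), -0.20 ± 0.22 (Fbln5), -0.22 ± 0.33 (Mfap5) and -0.25 ± 0.27 (Efemp2). Core and scaffold thus had the lowest values, and the remaining 8 lay within 1 SE of 0.

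Eln made up 10.2% to 51.9% of the members' counts over the libraries. Each library's Eln counts per Fbn1 count, a ratio within a library that does not depend on its size, were 0.779 to 1.04 in WT control females and 0.801 to 1.42 in WT AngII females. In WT males they were 0.665 to 2.76 in controls and 1.73 to 3.01 after AngII. KO control females had the lowest group median, with ratios of 0.408 to 0.671, and KO AngII females spanned 0.290 to 1.70 (median 0.671). KO control females 1 and 3, the libraries that stand apart, had 0.428 and 0.408. KO control female 2 had 0.671, the same as the KO AngII female median. KO males had 1.00 to 1.69 in controls and 1.25 to 2.00 after AngII. The ratio was not tested, and its group ranges overlapped in all 4 comparisons of AngII with control mice.

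**Figure D3:**
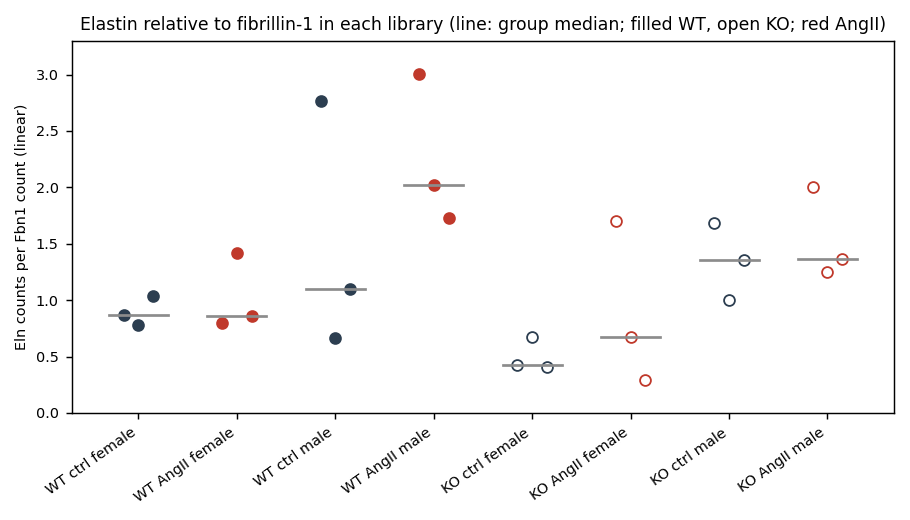
Eln counts per Fbn1 count in each library (linear axis) for the 8 groups; points are mice (filled WT, open KO, red AngII) and lines group medians. The KO control females lie between 0.408 and 0.671, and the WT AngII males between 1.73 and 3.01. KO control females 1 and 3, which stand apart, are at 0.428 and 0.408.

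Between mice of a group, Mfap2 and Eln varied most, with SDs of 0.97 and 0.80 log2 CPM within groups, and Fbn1 least, with 0.30. Deviations from the group means were correlated above 0 in 41 of the 45 pairs of members (median r 0.35), from -0.38 for Efemp2 with Emilin1 to 0.705 for Fbln1 with Mfap5. These r are over 24 libraries that share the same depth and make-up between genes, and are given as a description. Another description used log2 CPM of the 24 libraries themselves, so differences between groups enter, and its r cannot be set beside those above. By it, the protein-coding genes most like Eln were Ltbp2 (r 0.944), Col4a2 (0.940), Col18a1 (0.926), Col4a1 (0.918) and Ptgis (0.902). Without the 2 libraries at the extremes of Eln, these r were 0.914, 0.900, 0.877, 0.874 and 0.845. Most like the members' mean were Ecm1 (0.957), Sod3 (0.941), Lgals1 (0.920), Timp2 (0.904) and Ltbp3 (0.903).

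Other genes of elastic fibre assembly, crosslinking, turnover and cell contact were read from a list of 59, of which 48 were tested. The list was chosen with earlier results of these data known. Its counts beside all genes, here and below, are therefore a description and no test of the list. Emilin3 and Elane fell under the filter. The other 9 had 0 counts in every library and were not measured: Thsd4, Loxl1, Atp7a, Mmp7, Mmp12, Timp1, Itgb1, Glb1 and Bgn. In WT mice 33 of the 48 had an AngII change above 0 (median 0.41), against 48.8% of all genes. At an adjusted p under 0.05, 3 of the 48 rose and 0 fell, where 0.208% of all genes were called and 0.184% called higher. Lox, which crosslinks elastin and collagen, was at 76.6 to 126 (median 99.9) CPM in 6 WT controls and 124 to 564 (median 178) in 6 WT AngII mice. Its change was 1.25 ± 0.26 (edgeR adjusted p = 0.0303), and the ranges overlapped at their edge. Itga5, a subunit of the fibronectin receptor, went from 107 to 261 (median 181) to 254 to 602 (median 445) CPM, a change of 1.32 ± 0.26 (edgeR adjusted p = 0.0183). Fn1, which encodes fibronectin, went from 1952 to 5116 (median 3513) to 3351 to 13180.4 (median 10584) CPM, a change of 1.43 ± 0.31 (edgeR adjusted p = 0.0408). All 4 tested crosslinking genes, Lox, Loxl2, Loxl3 and Loxl4, had values above 0 (median 1.09), as had 3 of 3 TGF-beta ligands (median 0.56). Elastases were higher for 5 of 7, their inhibitors for 3 of 5, and microfibril and assembly genes for 7 of 15. Leaving out single libraries gave 0 to 8 called pathway genes. There were 8 without WT AngII female 1, and 0 without WT control female 3, WT control male 2, WT AngII female 2 or 3, or WT AngII male 3. Itga5 alone was called without WT control female 1 or 2, Itga5 and Lox without WT control male 1 or WT AngII male 2, and Fn1 and Itga5 without WT control male 3. There were 5 without KO AngII female 1 or 3, or without KO control female 1 or 2.

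In KO mice 33 of the 48 pathway genes had an AngII change above 0 (median 0.25), against 51.4% of all genes, and 0 were called, as of all genes (0.0%). Without KO control female 2, Loxl2 and Itgb5 were called. The smallest p-values belonged to Loxl2, at 0.90 ± 0.24, Itga5, at 0.90 ± 0.26, and Fn1, at 1.06 ± 0.31. In the difference of responses, KO minus WT, 0 were called, and the smallest p-values were those of Ctss (-2.11 ± 0.91), an elastin-degrading protease of macrophages, Lox (-0.81 ± 0.37) and Tgfb2 (-0.71 ± 0.33). In control mice 0 were called between genotypes, where 0.221% of all genes were. The smallest p-values there belonged to Ctss at 2.42 ± 0.67 (edgeR adjusted p = 0.137), which was called without KO control female 2 or KO control male 3, Loxl4 at 1.28 ± 0.59 and Itgb3 at -0.43 ± 0.18. For the sexes in WT mice 0 were called, with Loxl2 at -1.02 ± 0.47, Mmrn2 at -0.87 ± 0.48 and Hmcn1 at -1.27 ± 0.73.

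In AngII mice 2 of the 48 were lower in KO than in WT at an adjusted p under 0.05, where 0.355% of all genes were called and 0.049% called lower. Lox was at 56.8 to 189 (median 99.7) CPM in 6 KO AngII mice, and the difference from the WT AngII mice was -1.15 ± 0.26 (edgeR adjusted p = 0.0374). Tgfb3, a TGF-beta ligand, was at 73.9 to 107 (median 98.9) CPM in KO and 116 to 238 (median 159) in WT mice, a difference of -0.79 ± 0.18 (edgeR adjusted p = 0.0368). The Tgfb3 groups did not overlap, with KO wholly below WT as for 0.276% of all genes, and the Lox groups did. Itga5 came next at -0.82 ± 0.26 and did not pass. Neither was called without KO AngII male 2 or 3, WT AngII female 2 or 3, or WT AngII male 2 or 3. Lox alone was called without KO AngII female 1 or 2, KO AngII male 1, WT AngII male 1 or WT control female 2, and Tgfb3 alone without KO AngII female 3.

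**Figure D4:**
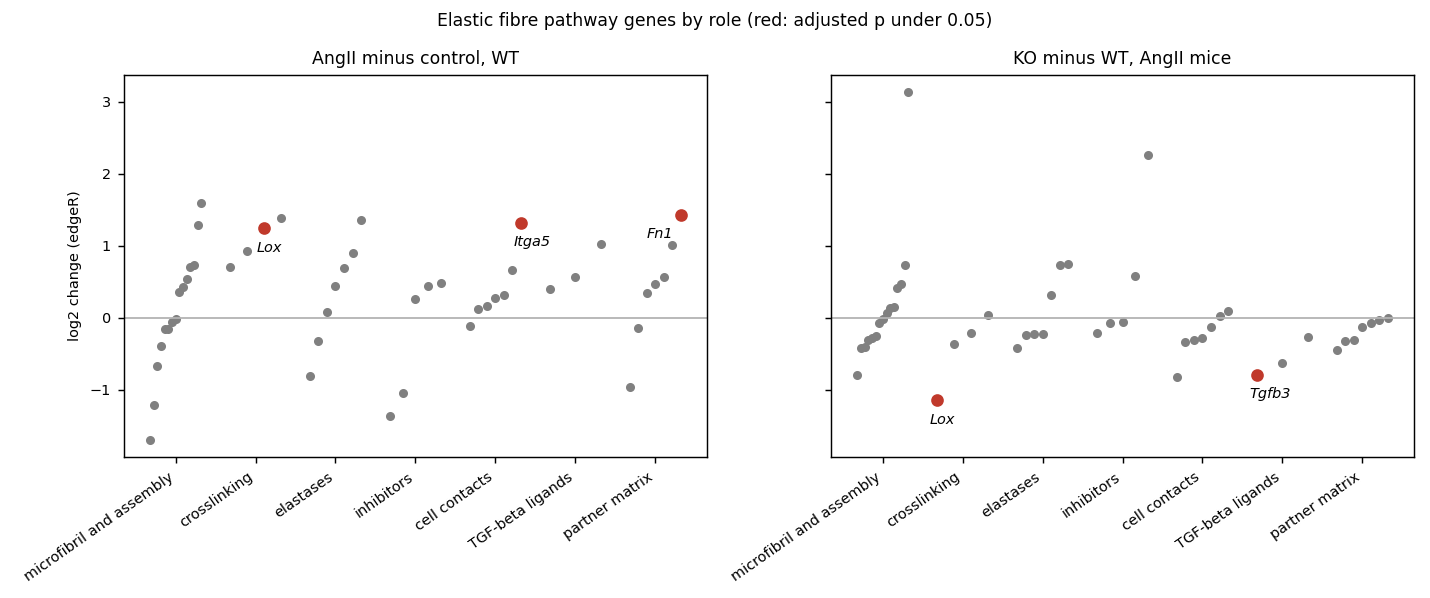
Fitted log2 change of the 48 tested pathway genes, grouped by role on the horizontal axis, for AngII minus control in WT mice (left panel) and KO minus WT in AngII mice (right panel); each point is 1 gene, and red points passed an adjusted p under 0.05 in edgeR. Itga5, Lox and Fn1 stand between 1.25 and 1.43 on the left, and Lox and Tgfb3 lie at -1.15 and -0.79 on the right.

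Reads from 4 members cannot be told apart from those of genes on the other strand where exons overlap, since the sources used here do not give whether counting used strand. These are Fbn1 with Gm9913 (2442 bases), Eln with Gm30003 (267), Efemp2 with Mus81 (173) and Mfap4 with Mapk7 (89). Over all libraries Gm9913 had 110 counts, Mus81 1353 and Mapk7 1291, and Gm30003 has no row in the table. The p-values set each change against the spread between mice within groups, estimated for each gene over all 8 groups together. A library outside a comparison can therefore move its p-value. Without KO AngII female 1, the AngII change of Eln in WT mice stayed at 1.22. Its SE went from 0.36 to 0.30 and its edgeR adjusted p from 0.257 to 0.0771.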

How the data were processed

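The values deposited by the authors are unnormalized counts, whole numbers in all 24 columns. The submitters' processing notes list featureCounts 1.4.6, Bowtie2 2.2.5, TopHat2 2.0.14, cutadapt 1.8.1 and the build mm10; strandedness is not given in the sources used here. Columns were matched to mice by the labels. The members and gene lists were chosen with earlier results of these data known. All 10 members in every comparison are named; of the pathway list, genes called (up to 10), or else the 3 with the smallest p; and the 5 genes most like Eln and most like the members' mean.

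Genes passing filterByExpr (minimum count 10, minimum total 15) were kept, 16316 in all, and scaled by TMM. A quasi-likelihood model in edgeR 4.0.16 (R 4.3.3, limma 3.58.1) had 1 coefficient for each of 8 groups over 24 libraries. Contrasts were tested two-sided and adjusted by Benjamini and Hochberg over 16316 genes, with calls at 0.05. CPM per kb used the length of the merged exons of all transcripts of a gene in GENCODE M21, and log2 CPM a prior count of 2. Alternatives were DESeq2 1.42.0, limma-voom with library quality weights, other size factors and filters, subsets of libraries, covariates and a replicate block. On simulated data with changes set in WT AngII mice, the edgeR model called 57 of 100 genes changed 2-fold and 99 changed 4-fold. For the difference of responses it called 19 of 100 at 2-fold and 94 of 100 at 4-fold. The changed genes were taken from the more abundant ones. Depth was 1523328 to 6352365 counts a library, and PCR copies were not marked.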

Additional observations from a re-analysis of the deposited data

How the results depend on the processing

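Of the 10 elastic fibre genes, the number called for AngII in WT mice, 1 in the report, depended on the setting. It was 0 with only the groups compared, females only, males only, adipocyte and muscle covariates, or the replicate block. It was 3 with DESeq2 (0.49% of all genes) and with protein-coding genes only, and 5 with limma-voom (2.02%) and with no filter on low counts. Leaving out single libraries gave 0 to 3, and 3 without WT AngII female 1, KO control female 1 or KO control female 2. For AngII in KO mice the number was 0, and 2 (Eln and Mfap4) with no filter. For KO against WT with AngII it was 0, 1 (Eln) with no filter and 2 (Eln and Fbn1) with limma-voom (1.23% of all genes). In the difference of responses, in KO against WT controls and between the sexes it was 0 in every setting run. Shares of all genes called are not given for the no-filter and protein-coding fits or for most single-library fits. Their counts of members have no background to be read against. The summed level of the members, 1918 CPM on average, was 3520 over protein-coding genes alone. Over all genes, the calls of edgeR, DESeq2 and limma-voom were 34, 80 and 329 for AngII in WT, 0, 17 and 0 for AngII in KO, 36, 183 and 43 for KO against WT controls, and 58, 152 and 200 for KO against WT with AngII. The labels give no pairing of mice by replicate number. Deviations of the 84 same-numbered pairs had a median r of 0.003, and pairs of different number -0.002. Of 24 libraries, 10 were closest to their own number. These values cannot settle whether mice of the same number shared a litter or day. With the replicate block 24 genes were called for AngII in WT.

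Of 2124 values of the members under alternatives, 134 had a sign other than in the report, none of them called, and the cause was not tested. By comparison the sign changed for 3 of 359 values for AngII in WT, 17 of 359 for AngII in KO, 26 of 349 for the difference of responses, 43 of 359 for KO against WT controls, 12 of 359 for KO against WT with AngII and 33 of 339 for the sexes. The values with a changed sign, in log2, were as follows. DESeq2 gave Fbln1 -0.00222 for AngII in KO, Fbn1 0.0158 and Efemp2 0.0119 for KO against WT controls. RLE size factors gave Fbln1 -0.00229 for AngII in KO, Fbn1 0.0151 and Efemp2 0.00871 for KO against WT controls. No filter gave Fbln2 -0.0082 for KO against WT controls, Fbln2 0.0511 for the sexes. A filter of 50 counts in 3 libraries gave Fbln1 -0.0153 for AngII in KO, Fbn1 0.0257 and Efemp2 0.0242 for KO against WT controls. limma-voom gave Fbln2 -0.212 for the difference of responses, Mfap5 -0.0864 for KO against WT controls, Fbln2 -0.0586 and Mfap2 -0.0719 for KO against WT with AngII, Fbln5 -0.0622 for the sexes. A fit of only the groups compared gave Fbln2 0.0062 for the sexes. Females alone gave Fbln1 -0.389 and Emilin1 -0.0312 for AngII in WT, Fbln1 -0.241 for AngII in KO, Eln 0.614, Fbln1 0.149, Fbln5 0.0523 and Efemp2 0.157 for the difference of responses, Fbln1 -0.216, Fbln2 -0.237, Fbln5 -0.213 and Mfap5 -0.279 for KO against WT controls, Fbln1 -0.0669 for KO against WT with AngII. Males alone gave Fbn1 -0.103, Efemp2 -0.0506 and Mfap2 0.08 for AngII in KO, Fbln2 -0.236 and Emilin1 -0.247 for the difference of responses, Eln 0.265, Fbn1 0.394, Efemp2 0.424 and Emilin1 0.395 for KO against WT controls, Mfap2 -0.0878 and Mfap5 0.322 for KO against WT with AngII. Protein-coding genes alone gave Fbln2 0.0274 for the sexes. Adipocyte and muscle covariates gave Mfap2 0.00298 for AngII in KO, Efemp2 0.0651 for the difference of responses, Emilin1 0.332 for KO against WT controls, Mfap5 0.0904 for KO against WT with AngII, Fbln2 0.0038 for the sexes. The replicate block gave Fbln2 0.0208 for the sexes. Leaving out KO control females 1 and 3 gave Mfap2 0.249 for AngII in KO, Fbln1 0.0678, Fbln2 -0.136, Efemp2 0.112, Mfap5 0.276 and Emilin1 -0.0394 for the difference of responses, Fbn1 0.133, Mfap5 -0.525 and Emilin1 0.189 for KO against WT controls, Fbln2 0.0329 for the sexes. Leaving out single libraries changed the sign of further values, with ranges over the 24 fits. For AngII in WT these were Fbln1 -0.0205 to 0.266. For AngII in KO these were Fbln1 -0.105 to 0.347 and Mfap2 -0.275 to 0.15. For the difference of responses these were Eln -0.77 to 0.114, Fbln1 -0.257 to 0.196, Fbln2 -0.121 to 0.255, Efemp2 -0.352 to 0.0203 and Mfap5 -0.455 to 0.363. For KO against WT controls these were Fbn1 -0.226 to 0.0661, Fbln1 -0.0694 to 0.379, Fbln2 -0.17 to 0.206, Fbln5 -0.118 to 0.267, Efemp2 -0.234 to 0.0235, Mfap5 -0.602 to 0.233 and Emilin1 -0.417 to 0.133. For KO against WT with AngII these were Fbln1 -0.0613 to 0.297, Fbln2 -0.0996 to 0.203, Mfap2 -0.127 to 0.369, Mfap4 -0.439 to 0.0796 and Emilin1 -0.00169 to 0.244. For the sexes these were Eln -0.413 to 0.544, Fbln2 -0.121 to 0.235, Fbln5 -0.17 to 0.545, Efemp2 -0.0247 to 0.721 and Mfap4 -0.908 to 0.0737. Mfap2 had too few counts for the filter of 50 counts and has no value there. A fit of only the groups compared has no separate value for the difference of responses, which uses all groups.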
